A study of Mus musculus with 8 samples.

Results

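The 9 genes described here encode subunits of phosphoinositide 3-kinase (PI3K), the kinase Akt that acts below it, and proteins that restrain the pathway: Pik3ca, Pik3cd, Pik3cg, Pik3r1, Pik3r2, Pik3ip1, Inpp5d, Akt1 and Akt2. They were taken by symbol from the probe annotation, and all 9 had a probe among the 21767 probes tested, which carry 15089 distinct symbols. Pik3ca had 2 probes, so that the genes rest on 10 probes in all; a gene with more than 1 probe is represented by the brighter one. The cells were CTL-EN, a mouse T cell line, expressing the human beta common chain of the GM-CSF receptor either as the wild type or as the Ser585Gly mutant. Each population was deprived of factor for 12 h in RPMI with 0.5% CS (the 0 h RNA), and was then given 50 ng/mL of human GM-CSF for a further 12 h (the 12 h RNA). Both populations therefore carry the introduced human chain and both passed through factor deprivation. No array held cells cultured for the second 12 h without GM-CSF, so that the growth factor and time in culture cannot be told apart, and the human chain has no probe here. The labels do not say whether each population was 1 clone.

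PI3K is a dimer of a regulatory subunit and a catalytic subunit that phosphorylates the membrane lipid PIP2 to PIP3, and PIP3 draws Akt to the membrane, where it is activated. Cytokine receptors such as that for GM-CSF engage the pathway to support survival and growth of blood cells, and the serine changed in Ser585Gly is a phosphorylation site known to bind 14-3-3 proteins and to be linked to PI3K signalling. The pathway is restrained by Pik3ip1, a membrane protein that binds the catalytic subunit, and by lipid phosphatases such as SHIP1, the product of Inpp5d. Active Akt keeps FoxO transcription factors out of the nucleus. The arrays measure mRNA and hold no measure of kinase activity.

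The 4 RNAs (wild type and Ser585Gly at 0 h and at 12 h) were compared on 8 2-colour oligonucleotide arrays, as a square with 4 edges and 2 dye orientations for each edge. Here the Cy5 array of an edge is the one with the 12 h or the Ser585Gly RNA in Cy5, and the Cy3 array is its dye swap. Ratios are given as log2 of 12 h over 0 h, or of Ser585Gly over wild type. Fitted differences come from 1 limma model over all 8 arrays, with their standard error (SE), and a gene was called where its p, adjusted by Benjamini-Hochberg over all 21767 probes, was under 0.05. The labels name no separate cultures, so that these p-values measure only the spread between hybridisations. Gene names rest on a 24-pin print order, called the recovered order below, that was given beforehand and was not derived here. In it 63 ribosomal protein genes had a median brightness percentile of 99.1, against 52.6 in the deposited order of names. The log2 changes of 905 pairs of probes that share 1 symbol were not used in placing the names here. They correlated at 0.29 to 0.36 over the 4 comparisons in the recovered order, and at -0.10 to 0.06 with the deposited names. In the deposited order the name Pik3ip1 falls on another spot, which read -0.35 and -0.12 with time in wild type and Ser585Gly; those values are not used. Dye swaps correlated across probes at 0.515 and 0.509 for the time edges, and at 0.124 and 0.219 for the mutation at 0 h and 12 h. Of 12 T cell markers measured, 11 were brighter than the 95th percentile of empty wells, with a median brightness percentile of 88.2; Cd4 was not. That threshold is lenient, since 21222 of all 21767 probes passed it. Of these 12 markers, Cd3e and Cd3g were called lower at 12 h in both populations. The medians for B cell, myeloid, erythroid, mast cell and fibroblast markers were 23.9 to 44.8. Single markers of these lists were brighter, such as Col1a1 (87.7), Hba-a1 (77.2) and Elane (70.6). Among these lists, 1 of 7 myeloid markers, Cd68, was called higher in Ser585Gly at 0 h (0.51) and 12 h (0.60). Of 4 erythroid markers 1, Hba-a1, was called lower at 12 h in wild type (-0.45) and Ser585Gly (-0.49). The summed signal of the 7 myeloid markers spanned 4268 to 6258 in wild type and 3393 to 5344 in Ser585Gly at 0 h, and 4381 to 5798 and 4506 to 5862 at 12 h. The summed signal of the 4 erythroid markers went from 2151 to 3970 at 0 h and 2858 to 3184 at 12 h in wild type, and from 1742 to 3255 at 0 h and 2388 to 2638 at 12 h in Ser585Gly. No mast cell or B cell marker was called, but the summed signal of the 6 mast cell markers, at 2859 to 3339 over both populations at 0 h, reached 11008 in wild type and 22335 in Ser585Gly on the highest channel at 12 h, with lowest channels of 2997 and 2607. That of the 5 B cell markers reached 10192 in wild type at 12 h and no more than 4714 in the other RNAs. No fibroblast marker was called, though Col1a1 read -0.63 for the mutation at 0 h (limma, adjusted p = 0.0661). The summed signal of the 5 fibroblast markers spanned 4907 to 5890 in wild type and 3439 to 7068 in Ser585Gly at 0 h. At 12 h it spanned 5538 to 7243 and 5011 to 8242. The part of these markers in the results below was not tested.

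Of the 9 genes, Pik3ip1 changed most: its mRNA fell with time in both populations and was higher in Ser585Gly than in wild type at both times. Pik3cg, the catalytic subunit gamma, rose with time in both populations, while Pik3r1, the main regulatory subunit, fell with time in Ser585Gly and was higher in Ser585Gly at 0 h. Averaging the dye swaps ended the calls of Pik3ip1 and Pik3r1 at 0 h, and the call of Pik3cg in wild type was lost under several settings. In wild type, 2 of the 9 genes were called with time, 1 higher and 1 lower, where 5.43% of all probes were called higher and 4.03% lower. In Ser585Gly, 3 were called with time, 1 higher and 2 lower, against 5.73% and 4.72% of all probes. Between the populations, 2 genes were called higher in Ser585Gly at 0 h and none lower, against 2.07% and 2% of all probes, and 1 was called higher at 12 h and none lower, against 0.914% and 0.799%. These shares depend on single arrays: over all probes 2061, 2276, 886 and 373 were called in the 4 comparisons in this order, and with 1 array left out the counts ran from 411 to 3302, 269 to 3429, 110 to 637 and 67 to 626. The lowest of these came without the Cy3 time array of wild type, the Cy5 time array of Ser585Gly, the Cy3 mutation array at 0 h and the Cy5 mutation array at 12 h, and both time counts and the mutation count at 12 h were highest without the Cy5 mutation array at 0 h. The median of the 9 differences was 0.02 in wild type and -0.07 in Ser585Gly with time, and for Ser585Gly against wild type it was -0.14 at 0 h and 0.17 at 12 h, beside medians between -0.01 and 0.01 over all probes. The 9 genes thus did not move in 1 direction: 5 of 9 were above 0 with time in wild type and 3 of 9 in Ser585Gly. In bulk RNA, fewer cells with an mRNA and less of it per cell cannot be told apart.

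**Figure D1:**
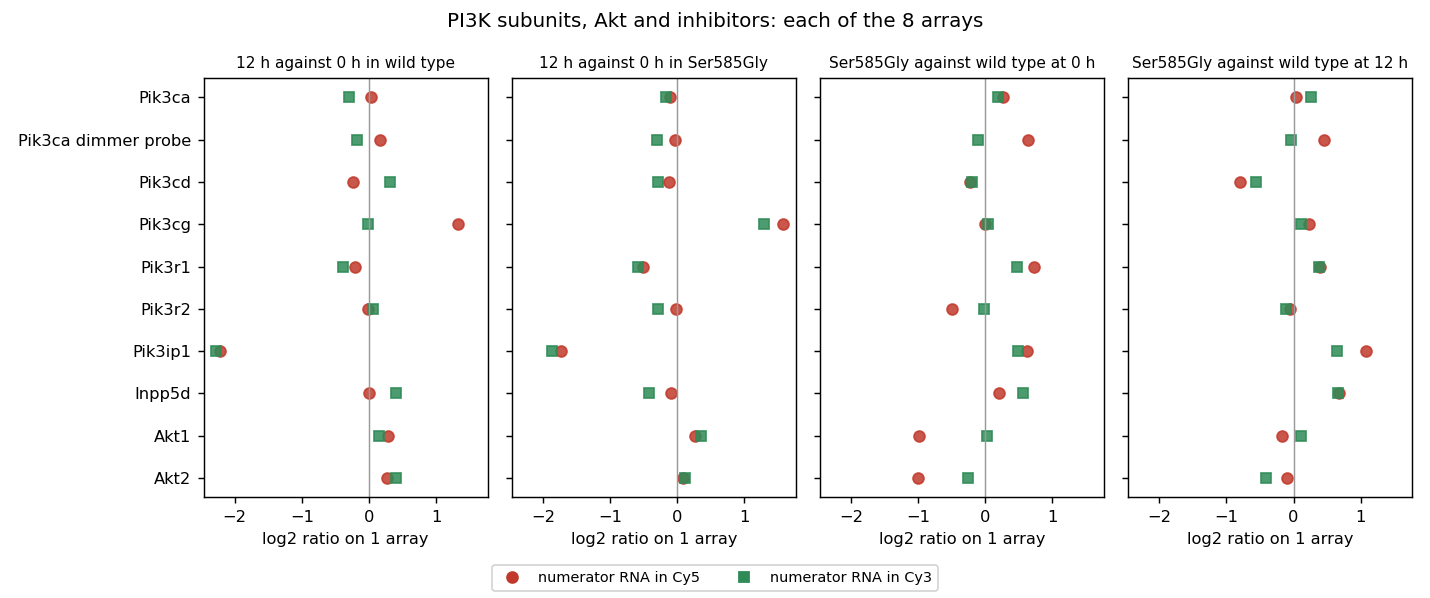
Each point is the log2 ratio of 1 gene on 1 of the 8 arrays, with 1 panel for each edge of the square; circles mark arrays with the 12 h or Ser585Gly RNA in Cy5, and squares the dye swap. Pik3ip1 lies between -2.27 and -1.73 on all 4 time arrays and between 0.48 and 1.07 on all 4 mutation arrays, whereas the 2 arrays for time in wild type differ for Pik3cg (1.32 and -0.02).

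The 250 bases before the annotated starts of Pik3ip1 and Pik3cg are shown because these genes moved most with time, and in opposite directions. RefSeq windows of 300 bases (250 before and 50 after each start, GRCm38.p6) were found for all 9 genes, 17 windows in all, and were searched for the FoxO core letters TGTTTAC and their reverse complement GTAAACA. Capitals mark a match; the Pik3ip1 sequence has none. Pik3ip1 lies on the forward strand (chr11:3330481-3330730), and Pik3cg on the reverse strand (chr12:32208471-32208720, 1 of 2 annotated starts), with each sequence written 5′ to 3′ along its gene.
Pik3ip1: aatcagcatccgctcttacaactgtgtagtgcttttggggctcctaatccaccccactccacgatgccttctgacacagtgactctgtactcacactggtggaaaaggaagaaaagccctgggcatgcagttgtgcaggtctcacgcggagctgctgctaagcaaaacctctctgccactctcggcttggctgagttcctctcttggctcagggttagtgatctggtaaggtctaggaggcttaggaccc
Pik3cg: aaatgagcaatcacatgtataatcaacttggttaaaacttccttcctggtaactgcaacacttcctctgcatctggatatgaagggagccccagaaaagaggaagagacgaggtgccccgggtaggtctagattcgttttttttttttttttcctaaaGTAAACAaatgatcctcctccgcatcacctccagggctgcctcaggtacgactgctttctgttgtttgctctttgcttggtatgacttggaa
The match upstream of Pik3cg is on the opposite strand and starts at position -92 from the annotated start. Of the 17 windows, 2 held a match, this one and 1 of the 2 windows of Akt1, beside 3.65% of all 32851 promoter windows. The 2 windows of Pik3cg overlap and some genes have more windows than others, so that these shares were not tested against each other. A match is a description of the letters, and nothing about binding was measured.

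Pik3ip1, the inhibitor that binds the catalytic subunit, had the clearest pattern of the 9. In wild type its log2 ratio of 12 h over 0 h was -2.22 on the Cy5 array and -2.27 on the Cy3 array. In Ser585Gly the ratios were -1.73 and -1.86. All 4 arrays showed lower mRNA at 12 h. In the fit it fell by 2.21 ± 0.099 (SE, 8 arrays) in wild type, which is 4.64-fold (limma, adjusted p = 7.01e-05), and it fell by 1.83 ± 0.099 in Ser585Gly, which is 3.56-fold (adjusted p = 0.000148). Among the 21767 probes this was the 6th lowest difference in wild type and the 7th lowest in Ser585Gly. Both calls held under all 19 alternative settings, with values from -2.26 to -1.98 in wild type and from -1.88 to -1.39 in Ser585Gly.

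Between the populations, the Ser585Gly over wild type ratio of Pik3ip1 was 0.61 and 0.48 at 0 h, and 1.07 and 0.65 at 12 h. All 4 arrays were above 0. The fitted difference was 0.51 ± 0.099 at 0 h (1.43-fold; limma, adjusted p = 0.0309) and 0.89 ± 0.099 at 12 h (1.86-fold; adjusted p = 0.00386). The call at 0 h was lost with dye-swap pairs averaged (adjusted p = 0.0855), with a trended prior (0.0869), from the direct arrays alone (0.0871) and without any 1 of 6 arrays (0.0511 to 0.145, differences of 0.47 to 0.54), namely both for the mutation at 0 h, both for time in wild type and the Cy5 arrays of the other edges. The call at 12 h was kept in all settings except without the Cy5 array of the mutation at 12 h (0.83, adjusted p = 0.0798). The time response of Ser585Gly less that of wild type was 0.38 (95% interval 0.12 to 0.64) for Pik3ip1, and this interaction was not called (limma, adjusted p = 0.564).

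The single-channel levels, each on a log2 scale after normalisation between arrays, show the same 4 RNAs of Pik3ip1. They were 11.83 ± 0.78 (SD, 4 channels) in wild type at 0 h and 9.73 ± 1.07 at 12 h. In Ser585Gly they were 12.98 ± 0.93 at 0 h and 11.25 ± 1.21 at 12 h. Ser585Gly at 0 h was thus the highest and wild type at 12 h the lowest, while wild type at 0 h and Ser585Gly at 12 h differed by less than their SDs. These SDs include differences between arrays, which cancel in the ratios within an array.

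**Figure D2:**
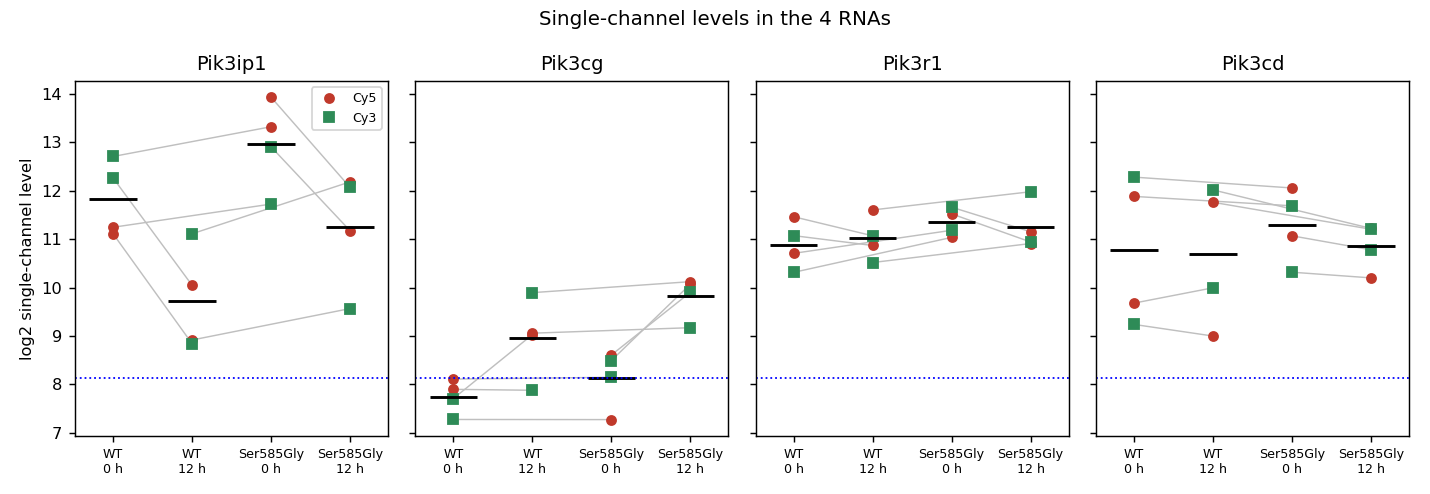
Log2 single-channel levels of Pik3ip1, Pik3cg, Pik3r1 and Pik3cd in the 4 RNAs (WT is wild type); each RNA was read on 4 channels, black bars are their means, grey lines join the 2 channels of 1 array, and the dotted line is 8.14, the highest of the 95th percentiles of empty wells over the 16 array channels. Pik3cg lies near that line at 0 h and above it at 12 h on most channels, and the levels of Pik3cd spread over 9.0 to 12.28 between arrays.

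Among the catalytic subunits, Pik3cg encodes p110 gamma, a form found mostly in blood cells and known for its activation by G-protein-coupled receptors. In wild type its ratio of 12 h over 0 h was 1.32 on the Cy5 array and -0.02 on the Cy3 array, so that the dye swaps did not show the same change. In Ser585Gly the ratios were 1.58 and 1.30, and both arrays showed a rise. The fitted difference was 0.81 ± 0.21 (SE, 8 arrays) in wild type (1.75-fold; limma, adjusted p = 0.0457) and 1.28 ± 0.21 in Ser585Gly (2.43-fold; adjusted p = 0.00707). Pik3cg was dim, at brightness percentile 28.9. Its mean level was 7.75 ± 0.36 (SD, 4 channels) at 0 h and 8.96 ± 0.83 at 12 h in wild type, and 8.13 ± 0.60 and 9.82 ± 0.44 in Ser585Gly. At 0 h, 3 of 4 channels in each population exceeded the 95th percentile of the empty wells of that channel, and at 12 h 4 of 4 did. In wild type the channel below that threshold (7.70 against 7.90) was on the Cy5 time array, the one with the ratio of 1.32, so that the size of the fold there rests on a 0 h signal below that percentile of empty wells. In the order of these 4 levels the neighbours at 0 h differed by less than the larger of their SDs, and the other neighbours by slightly more than either SD.

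The call for Pik3cg in wild type was not stable. It was lost without background correction (0.58, adjusted p = 0.0616), with median centring (0.77, 0.0825), from the direct arrays alone (0.65, 0.165) and without any 1 of 6 arrays (0.58 to 0.81, adjusted p = 0.0736 to 0.283): the Cy5 array for time in wild type, both for time in Ser585Gly, both for the mutation at 12 h and the Cy3 array for the mutation at 0 h. Without the Cy3 array for time in wild type the difference was 1.27. In Ser585Gly the call was lost only without the Cy5 array of that edge (1.21, adjusted p = 0.105) or its Cy3 array (1.11, 0.0713). The mutation ratios were -0.00 and 0.04 at 0 h and 0.23 and 0.11 at 12 h, with fitted differences of -0.14 (95% interval -0.62 to 0.33) and 0.33 (-0.15 to 0.80), neither of which was called. On the array with the ratio of -0.00, the Ser585Gly channel was below the 95th percentile of its empty wells (7.27 against 7.62). That ratio therefore cannot show equal levels. The interaction was 0.47 (-0.08 to 1.02; limma, adjusted p = 0.756), so that a larger rise in Ser585Gly was not shown.

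Pik3cd encodes p110 delta, the catalytic subunit best known for its part in lymphocytes. At 12 h the ratio of Ser585Gly over wild type was -0.80 on the Cy5 array and -0.56 on the Cy3 array. At 0 h it was -0.22 and -0.19, so that all 4 arrays were below 0. The fitted difference at 12 h was -0.62 ± 0.12 (95% interval -0.90 to -0.34), which missed the threshold (limma, adjusted p = 0.0517), and at 0 h it was -0.27 ± 0.12 (adjusted p = 0.245). The 12 h difference was called in 9 of the 19 alternatives, among them print-tip loess (-0.69, adjusted p = 0.0192) and a fit to the deposited log2 ratios (-0.85, 0.00411). Both of these settings also called more of all probes at 12 h, 994 and 2208 against 373 in the main fit. With dye-swap pairs averaged the difference was not called (limma, adjusted p = 0.116). With time, the arrays read -0.24 and 0.32 in wild type and -0.12 and -0.29 in Ser585Gly. Neither time difference was called, at 0.09 (95% interval -0.19 to 0.38) and -0.26 (-0.54 to 0.02).

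Pik3ca encodes p110 alpha, the widely expressed catalytic subunit. No difference was called for either of its probes. The brighter probe gave fitted differences of -0.12 (95% interval -0.36 to 0.12) with time in wild type and -0.15 (-0.40 to 0.09) in Ser585Gly, and 0.20 (-0.04 to 0.45) and 0.17 (-0.07 to 0.41) for the mutation at 0 h and 12 h. The dimmer probe gave the same signs, at -0.03, -0.15, 0.29 and 0.18. On single arrays the brighter probe ran from -0.30 to 0.27 and the dimmer probe from -0.30 to 0.64. The intervals of the brighter probe reach no farther than 0.45 from 0 on the log2 scale.

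Of the regulatory subunits, Pik3r1 encodes p85 alpha, which holds the catalytic subunit and couples it to phosphotyrosines of receptors and adaptors. The ratio of Ser585Gly over wild type was 0.72 and 0.48 at 0 h, and 0.39 and 0.38 at 12 h. The ratio of 12 h over 0 h was -0.20 and -0.39 in wild type, and -0.51 and -0.58 in Ser585Gly. Thus all 4 mutation arrays were above 0 and all 4 time arrays below it, as they were for Pik3ip1. In the fit Pik3r1 was higher in Ser585Gly at 0 h by 0.61 ± 0.092 (SE, 8 arrays; 1.52-fold; limma, adjusted p = 0.0129), and at 12 h the difference was 0.38 ± 0.092 (adjusted p = 0.104). With time it fell by 0.54 ± 0.092 in Ser585Gly (1.45-fold; adjusted p = 0.00859), and in wild type the difference was -0.31 ± 0.092 (adjusted p = 0.0767).

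Pik3r1's call at 0 h was lost with dye-swap pairs averaged (adjusted p = 0.0652), from the direct arrays alone (0.0622), and without the Cy5 array (0.57, 0.0505) or the Cy3 array (0.66, 0.0832) of that edge or the Cy5 array for time in Ser585Gly (0.60, 0.0553). Its fall in Ser585Gly was lost without the Cy5 array (-0.51, 0.134) or the Cy3 array (-0.55, 0.0580) of its own edge. The difference in wild type was called in 4 of 19 alternatives, among them the deposited log2 ratios (-0.28, 0.0115), and that at 12 h in 3, among them the same ratios (0.41, 0.00405). The interaction was -0.23 (95% interval -0.47 to 0.01; limma, adjusted p = 0.736), so the 2 time responses of Pik3r1 were not shown to differ. Its single-channel levels, 10.89 and 11.02 in wild type and 11.35 and 11.25 in Ser585Gly at 0 h and 12 h, had SDs of 0.29 to 0.50 and did not resolve these differences.

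Pik3r2 encodes p85 beta, a second regulatory subunit. No difference was called for it. Its ratios with time were -0.02 and 0.07 in wild type and -0.02 and -0.29 in Ser585Gly, and those of the mutation were -0.50 and -0.02 at 0 h and -0.05 and -0.12 at 12 h. The fitted values were -0.07 (95% interval -0.37 to 0.23) and -0.06 (-0.36 to 0.24) with time, and -0.17 (-0.47 to 0.13) for the mutation at both times. The 2 regulatory subunits thus had time differences of -0.54 (Pik3r1, called) and -0.06 (Pik3r2, not called) in Ser585Gly; the difference between the genes was not tested.

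Inpp5d encodes SHIP1, a blood cell phosphatase that removes a phosphate from PIP3. Its ratio of Ser585Gly over wild type was 0.20 and 0.56 at 0 h and 0.68 and 0.66 at 12 h, so that all 4 arrays were above 0. The fitted differences of 0.57 ± 0.17 at 0 h (95% interval 0.18 to 0.95; limma, adjusted p = 0.0996) and 0.48 ± 0.17 at 12 h (0.09 to 0.87; adjusted p = 0.269) missed the threshold. Both were called from the deposited log2 ratios (0.55, adjusted p = 0.00228, and 0.45, 0.00564) and with print-tip loess (0.72, 0.00587, and 0.49, 0.0337). These settings also called more of all probes, 2555 and 2043 at 0 h against 886 in the main fit, and 2208 and 994 at 12 h against 373. With dye-swap pairs averaged neither was called (limma, adjusted p = 0.135 and 0.351). With time the ratios were 0.01 and 0.41 in wild type and -0.09 and -0.42 in Ser585Gly, and the fitted differences were 0.02 (-0.37 to 0.41) and -0.07 (-0.45 to 0.32).

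Akt1 and Akt2 encode the kinases that PIP3 brings to the membrane; Akt1 is known mainly for growth and survival and Akt2 for insulin signalling. With time, Akt1 read 0.28 and 0.15 in wild type and 0.27 and 0.36 in Ser585Gly. Akt2 read 0.26 and 0.40 in wild type and 0.09 and 0.12 in Ser585Gly. All 8 of these ratios were above 0. The fitted differences were nevertheless uncalled: 0.12 ± 0.16 and 0.40 ± 0.16 for Akt1 (limma, adjusted p = 0.714 and 0.177), and 0.18 ± 0.17 and 0.26 ± 0.17 for Akt2 (0.585 and 0.426). For both genes the fitted value lay below both direct arrays in wild type and above both in Ser585Gly, since the joint fit also uses the other edges. Without the Cy5 mutation array at 0 h, the wild type differences with time were 0.23 for Akt1 and 0.29 for Akt2. With the deposited log2 ratios Akt1 was called in wild type (0.23, adjusted p = 0.0314) and in Ser585Gly (0.25, 0.0210), and Akt2 in wild type (0.35, 0.00850) and not in Ser585Gly (0.15, 0.182).

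For the mutation, the Cy5 array at 0 h stood apart for both kinases, at -1.0 for Akt1 and -1.0 for Akt2, whereas its dye swap read 0.02 and -0.26. At 12 h the ratios were -0.17 and 0.12 for Akt1 and -0.09 and -0.41 for Akt2. No mutation difference of either gene was called. At 0 h the fitted values were -0.40 (95% interval -0.78 to -0.02; limma, adjusted p = 0.200) for Akt1 and -0.48 (-0.87 to -0.09; adjusted p = 0.149) for Akt2, and at 12 h -0.12 (-0.49 to 0.26) and -0.41 (-0.80 to -0.01). Without the Cy5 array at 0 h, the fitted differences at 0 h were -0.07 for Akt1 and -0.14 for Akt2. The probe of Akt2 was placed on its spot by the order of its neighbours and was not the nearest to it by values. With the deposited log2 ratios the mutation difference of Akt1 was 0.04 at 0 h and 0.06 at 12 h, above 0 at both times, and Akt2 was called lower at 12 h (-0.37, adjusted p = 0.0122).

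**Figure D3:**
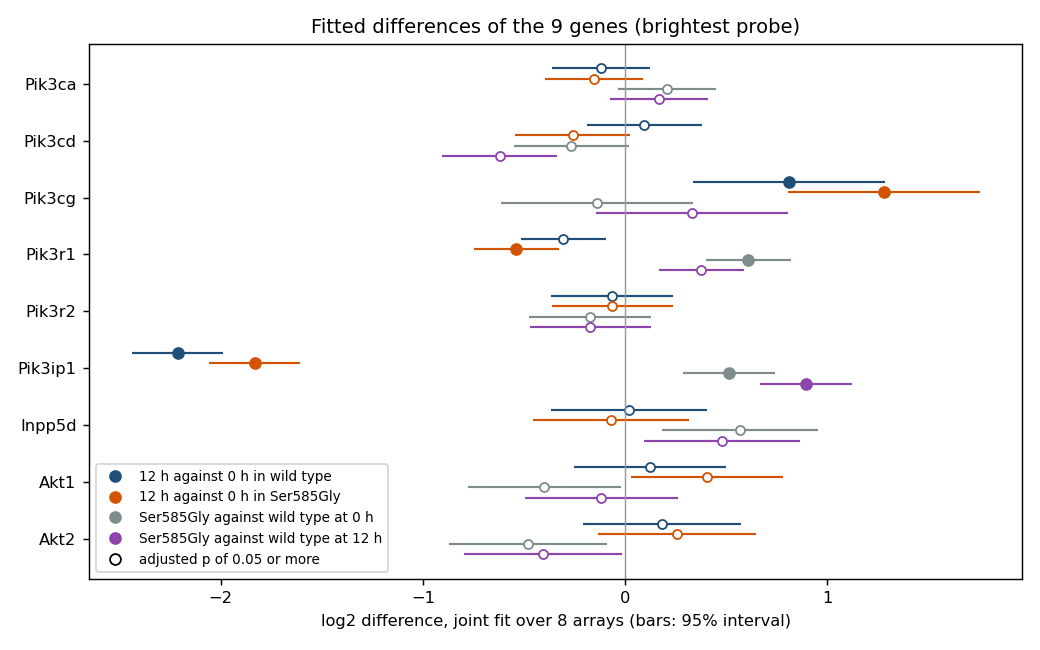
Fitted log2 differences of the 9 genes in the 4 comparisons, with 95% intervals from the limma fit over 8 arrays; filled points have an adjusted p under 0.05. Pik3ip1 stands at -2.21 and -1.83 with time and at 0.51 and 0.89 for the mutation, Pik3cg at 0.81 and 1.28 with time, and the intervals of Pik3r2 include 0 in all 4 comparisons.

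For the remaining genes, RNAs next to each other in the order of single-channel levels differed by less than the larger of their SDs over 4 channels. Pik3ca ranged over the 4 RNAs from 10.58 in wild type at 0 h to 11.07 in Ser585Gly at 12 h (SDs 0.33 to 0.52), and Pik3cd from 10.69 in wild type at 12 h to 11.28 in Ser585Gly at 0 h (SDs 0.48 to 1.54). Pik3r2 ranged from 12.23 in Ser585Gly at 12 h to 12.72 in wild type at 0 h (SDs 0.19 to 0.47), and Inpp5d from 10.31 in Ser585Gly at 0 h to 10.85 in wild type at 12 h (SDs 0.51 to 0.91). Akt1 was lowest in wild type at 0 h (11.18 ± 0.53) and highest in Ser585Gly at 12 h (12.30 ± 0.35), and Akt2 lowest in Ser585Gly at 0 h (11.26 ± 0.59) and highest in wild type at 12 h (12.05 ± 0.69). Levels and ratios differed in direction for several genes. For Inpp5d the level in Ser585Gly was below that of wild type at 0 h (10.40) and at 12 h (10.67 against 10.85), although all 4 mutation arrays read above 0. For Pik3cd it was above wild type at 0 h (11.28 against 10.77) and 12 h (10.85 against 10.69), although all 4 read below 0. Akt1 levels were higher in Ser585Gly at both times, with fitted mutation differences below 0. Pik3ca levels in both populations and Pik3r1 levels in wild type were higher at 12 h, with fitted time differences below 0. Levels in different RNAs come in part from different arrays, and the ratios within arrays are the basis of every call.

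No interaction between mutation and time was called for any of the 9 genes, where 0.0551% of all probes were called in either direction. At an unadjusted p under 0.05, limma gave 2 of the 9, Pik3ip1 and Pik3cd. No alternative out of 18 called an interaction for any of the 9 either. The other interactions had intervals that include 0, from -0.09 (95% interval -0.53 to 0.36) for Inpp5d to 0.28 (-0.15 to 0.72) for Akt1, apart from those given for Pik3cg and Pik3r1. The deposited value table gave the direction of the main fit for all 8 calls among the 9 genes, and it called 5 and 4 of the 9 genes with time, in wild type and in the mutant, and 3 and 6 between the populations, at 0 h and at 12 h. It also called more of all 21767 probes, at 4180, 4234, 2555 and 2208 in the same order.

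The genes around these 9 were taken as a list of 56 by role, of which 41 had a probe: 3 other PI3K subunits, 8 adaptors, 4 lipid phosphatases, 11 regulators of Akt and 15 genes downstream. With time, 6 of the 41 rose and 1 fell in wild type, and 5 rose and 2 fell in Ser585Gly, beside 5.43% and 4.03% of all probes in wild type and 5.73% and 4.72% in Ser585Gly. Between the populations 1 was higher in Ser585Gly and none lower at 0 h, beside 2.07% and 2% of all probes, and 1 was higher and 1 lower at 12 h, beside 0.914% and 0.799%. The medians over the 41 genes ran from -0.04 to -0.03 in these 4 comparisons. None of the other PI3K subunits (Pik3cb, Pik3r4 and Pik3c2a) and none of the 4 lipid phosphatases was called in any comparison. No interaction was called by limma among the 41 genes, and 2 had an unadjusted p under 0.05, Trib3 and Rptor.

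Among the regulators of Akt, Trib3, a pseudokinase known to bind Akt and to be induced by the integrated stress response, rose by 2.0 in wild type (limma, adjusted p = 0.000433) and by 0.97 in Ser585Gly (adjusted p = 0.00867). Its interaction of -1.03 was not called (adjusted p = 0.292). Phlpp1, a phosphatase that removes an activating phosphate from Akt, rose by 0.55 (adjusted p = 0.0159) and 0.42 (0.0419). Of the 8 adaptors, Gab1, a docking protein that recruits PI3K, rose by 0.52 (adjusted p = 0.0249) and 0.62 (0.0115). Ptpn11 had probes that disagreed with time in wild type, at -0.03 for the brighter and 0.46 (adjusted p = 0.0417) for the dimmer.

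Downstream of Akt, Eif4ebp1, an inhibitor of translation initiation that mTOR complex 1 phosphorylates, rose by 0.83 in wild type (limma, adjusted p = 0.00315) and by 0.62 in Ser585Gly (0.00984), and was lower in Ser585Gly at 12 h (-0.56, 0.0448). Akt1s1, which encodes the mTOR complex 1 inhibitor PRAS40, rose by 0.52 (0.0205) and 0.53 (0.0168). Rptor, the scaffold of that complex, rose by 0.49 in wild type (0.0247), with 0.05 in Ser585Gly, and its interaction of -0.43 was not called (0.505). The kinase Gsk3b, which Akt inhibits, fell by 0.38 (0.0460) in wild type and fell by 0.43 (0.0288) in Ser585Gly, and its 3 probes lay between -0.55 and -0.31 in both populations. The transcription factor Foxo3 fell by 0.47 in Ser585Gly (0.0234), with -0.38 in wild type (0.0530). Its 3 probes lay between -0.49 and -0.22 in Ser585Gly, where 2 were called, and between -0.38 and -0.14 in wild type, where none was. Foxo1 read -0.42 and -0.32 without a call. Rps6kb2, an S6 kinase, was higher in Ser585Gly by 0.71 at 0 h (0.0124) and by 0.75 at 12 h (0.0122).

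Of these 17 calls, 5 held with dye-swap pairs averaged: both of Trib3 (adjusted p = 0.00197 and 0.0119), both time calls of Eif4ebp1 (0.0201 and 0.0375) and Gab1 in Ser585Gly (0.0414). The other 12 had adjusted p from 0.0536 to 0.135 in that limma fit. Leaving out 1 array at a time ended no call for Trib3 and Eif4ebp1 in wild type, and ended each of the other 15 with at least 1 array.

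**Figure D4:**
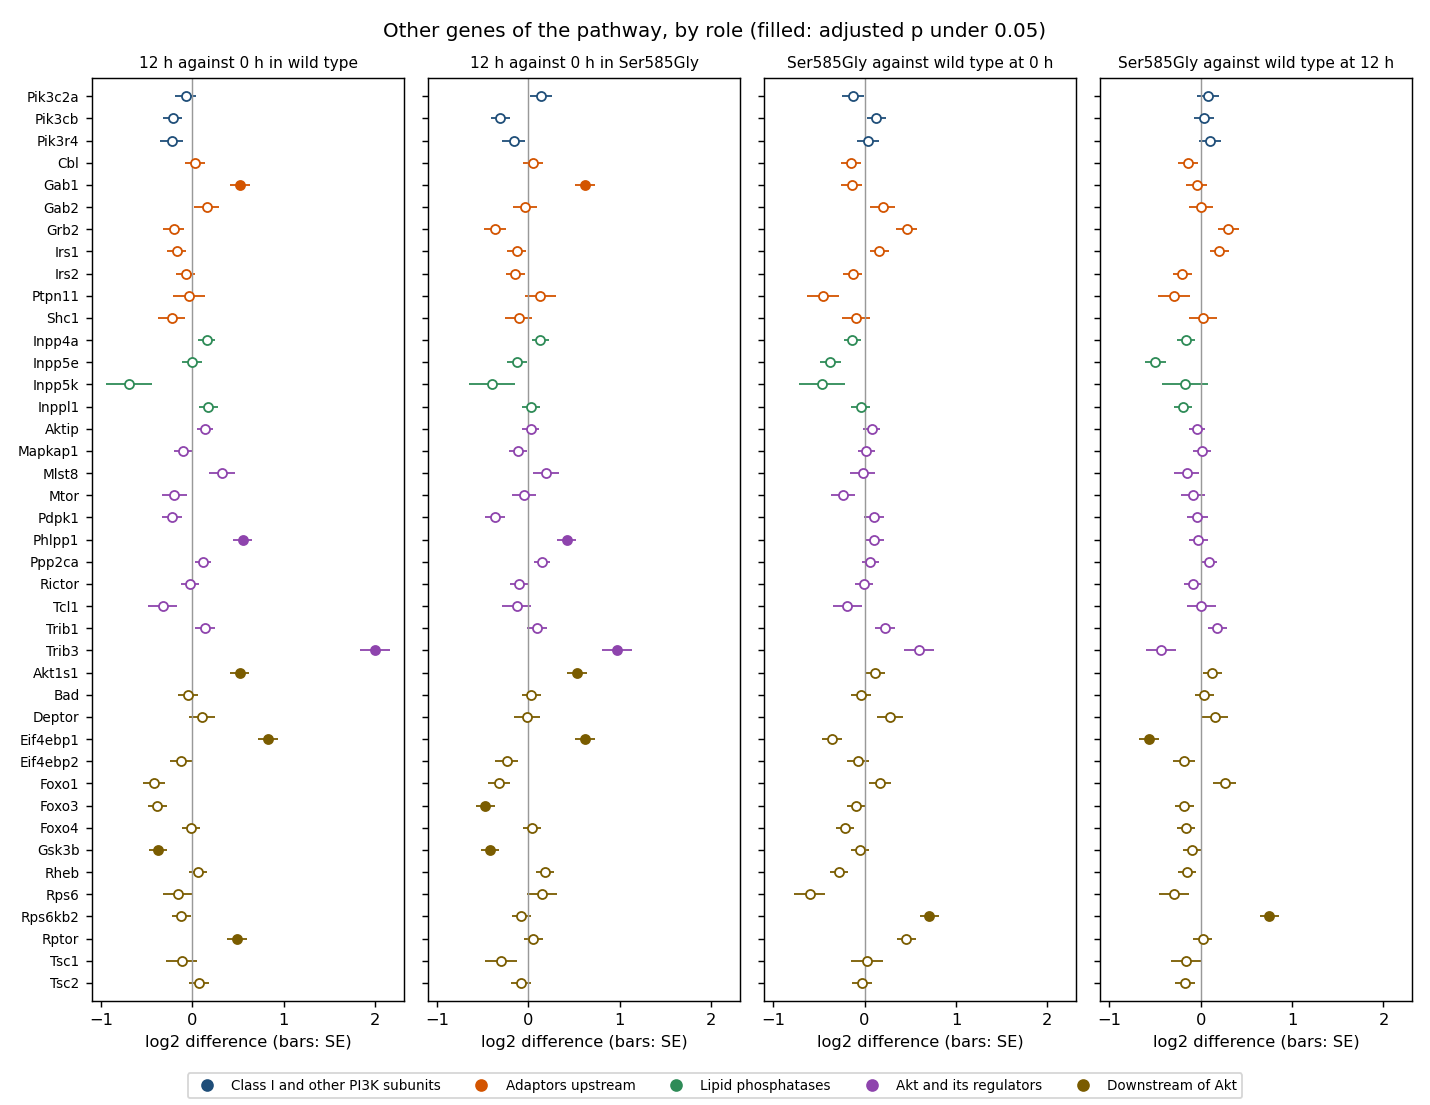
Fitted log2 differences, with SE bars, of the 41 measured genes around the 9, ordered by role, in the 4 comparisons; filled points have an adjusted p under 0.05. Trib3 lies farthest from 0, at 2.0 with time in wild type, and most other genes lie within their SE or a few SEs of 0.

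The genes whose 8 array ratios were most like those of Pik3ip1, by root mean square difference on the log2 scale among 15088 genes, were Klhl24 (0.462), Smpd1 (0.463), Sfrp2 (0.517), Ptgr1 (0.532) and Trp53inp1 (0.537). Over the 8 arrays, which share the 4 RNAs, their correlations with Pik3ip1 were 0.977, 0.958, 0.963, 0.996 and 0.941 in the same order. The genes were chosen by these same 8 ratios, so that high correlations follow from the choice. Klhl24 differed by -1.69 with time in wild type and by -1.71 in Ser585Gly, and Trp53inp1 by -2.20 and -2.09. For the mutation these 5 genes read 0.24 to 0.51 at 0 h and 0.25 to 0.47 at 12 h, below the 0.89 of Pik3ip1 at 12 h.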

How the data were processed

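The 8 scanner files held intensity values, with foreground and local background per dye for 23040 spots, per the file headers. The image analysis behind them was not given in the sources used here. Log2 ratios (Cy5 over Cy3) stood in a table deposited by the authors, whose processing notes name limma with neither version nor steps. Because scanner files carry no names, table rows were matched to spots by the 8 ratios (90.3% of the placed probes were nearest by values). Names were then moved to the recovered 24-pin print order, which was given beforehand. Of 21797 gene probes 21767 were placed, and 16636 had 1 symbol.

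Background was corrected by normexp (offset 50) and arrays normalised by loess (span 0.3, control spots without weight). limma 3.58.1 in R 4.3.3 fitted mutation, time, their interaction and dye over 8 arrays, with 4 residual degrees of freedom and 4.35 from the prior. All p-values were two-sided and adjusted by Benjamini-Hochberg over 21767 probes. Precision is limited by the number of arrays. The fit for time in wild type was tested on simulated data. These were drawn with independent normal noise, so that they cannot show how the fit handles dependence between dye swaps.

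The 9 genes, the list of 56 and the marker lists were chosen with earlier results of these data known. All probes of the 9 genes are described, genes of the list of 56 are named with values where called, with Foxo1, Ptpn11 and the 3 other PI3K subunits added after their values were seen, and 5 genes are named by likeness to Pik3ip1. The alternatives were pair averaging, a pair block, other background and normalisation steps, the deposited table, a filter on dim probes, a trended prior, direct arrays and leaving out each array. The 15 listed genes without a probe were not analysed here.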

Additional observations from a re-analysis of the deposited data

How the results depend on the processing

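The number of the 9 genes called moved with the settings. With time in wild type it was 2, and 1 without background correction, 5 with print-tip loess, 1 with median centring, 5 from the deposited value table, 3 with the dye-swap pair as a random block, 1 from the direct arrays alone, and 1 to 3 when 1 array was left out. Calls over all probes moved too, from 2061 to 1870, 4076, 1518, 4180, 4186 and 885 in the same order of settings. With time in Ser585Gly 3 of the 9 were called, and 4 with print-tip loess, 4 from the deposited value table, and 1 to 3 when 1 array was left out. Over all probes the calls there went from 2276 to 4277 and 4234 in the same order of settings. For the mutation at 0 h 2 of the 9 were called, and 0 with dye-swap pairs averaged, 1 with a trended prior and 0 from the direct arrays alone. The count was 3 each with the random block, print-tip loess and the deposited value table, and 0 to 2 when 1 array was left out. Over all probes the calls at 0 h went from 886 to 290, 820, 227, 3385, 2043 and 2555 in the same order of settings. For the mutation at 12 h 1 of the 9 was called, and 3 with the dye-swap pair as a random block, 2 with plain background subtraction and 2 without background correction. The count was 4 with print-tip loess, 2 with arrays scaled to each other, 6 from the deposited value table and 2 with dim probes left out. It was 0 to 2 when 1 array was left out. Over all probes the calls at 12 h went from 373 to 1132, 471, 421, 994, 734, 2208 and 408 in the same order of settings. The interaction count of the 9 genes was 0 throughout. The cause of these changes in count was not tested.

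No called difference among the 9 genes changed sign under any of these settings. Over all single genes and comparisons, 843 values kept their direction and side of the threshold, 28 lost a call, 30 gained one and 39 uncalled values changed sign. The median of all probes moved by at most 0.0115 on the log2 scale. The random block had an estimated correlation of -0.326 within dye-swap pairs. Averaging the pairs leaves 1 residual degree of freedom. For Pik3cg, signal near that of empty wells at 0 h limits what the ratio can show.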
